A study of Mus musculus with 54 samples.

Results

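Immunity-related GTPases are large interferon-inducible GTPases with which mouse cells defend themselves against pathogens that live inside vacuoles, such as Toxoplasma and Chlamydia. Effector proteins of the family (Iigp1, also called Irga6, and the Irgb6 proteins encoded by Tgtp1 and Tgtp2) are loaded from the cytosol onto the membrane of the pathogen's vacuole, which then breaks down. Regulator proteins (Irgm1, Irgm2 and Igtp, also called Irgm3) sit on the cell's own membranes and hold the effectors inactive there, and Irgm1 is also known for its part in autophagy and in the control of mycobacteria. The 6 genes Irgm1, Irgm2, Igtp, Iigp1, Tgtp1 and Tgtp2 were taken as members by their symbols. They are 6 of the 39179 genes that were counted, and all 6 passed the filter on low counts in both experiments.

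Peritoneal macrophages were elicited with thioglycolate in C57BL/6 mice aged 8 to 20 weeks and were analysed by RNA sequencing in 2 experiments, which together gave 54 libraries of 15 conditions. In the polarization experiment, macrophages of 3 mice were kept for 24 h without stimulus (M0), with IFNγ at 50 ng/ml plus LPS at 100 ng/ml (M1-like) or with IL-4 at 10 ng/ml (M2-like), and each mouse and condition was sequenced in 2 technical replicates. The reprogramming experiment had 12 conditions with 3 replicates each. The labels do not tie the replicates of the reprogramming experiment to mice or cultures. The study's methods, in the part on RNA isolation and quantitative PCR, call the replicates biological for the combined siRNA pool and for the M0, M1-like and M2-like states, and name no other condition there. For the conditions where nothing is said, the p-values measure the spread between these samples, which may be technical.

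Macrophages without transfection (M0, M1-like and M2-like) formed 3 of the 12 conditions of the reprogramming experiment. M0 mock, M1-like mock and M2-like mock macrophages had received the transfection reagent DharmaFECT without siRNA. The other 6 conditions were M2-like macrophages that had been polarized with IL-4 for 24 h and then transfected with a negative siRNA pool, with a pool against E2f1, Myc, Pparg or Stat6, or with the combined pool against all 4 transcription factors (called iM1, for induced M1-like, in the study). IL-4 was absent after transfection, and RNA was taken 48 h later. The sources used here give no separate harvest time for the untransfected macrophages of this experiment. Time in culture and mock treatment can therefore not be told apart between mock-treated and untransfected macrophages. Whether LPS and IFNγ stayed on the M1-like mock macrophages was not stated either. Myc siRNAs came from another manufacturer than the E2f1, Pparg and Stat6 pools, so that the effect of the target and that of the reagent cannot be told apart, and the source of the negative siRNA pool was not given in the sources used here.

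Counted reads per library ranged from 19714994 to 29880494 in the polarization and from 13421854 to 19704195 in the reprogramming experiment. Macrophage markers (7 genes, among them Adgre1, Csf1r and Lyz2) summed to between 6211 and 18320 CPM (the usual per-library scaling of a gene's counts, on TMM-normalized library sizes), whereas the 4 T cell markers stayed at or under 1.504 CPM and the 3 NK cell markers at or under 0.700 CPM in every sample. Both lists mark cell types that make IFNγ. The highest T cell sums were 1.504 CPM in M0 mock, 1.220 CPM in the Myc pool and 1.143 CPM in the negative pool samples. The sum was at most 0.0682 CPM in M0, 0.0640 CPM in M2-like mock and 0.0636 CPM in the combined pool. In the reprogramming experiment, the 4 B cell markers summed to 6.80 to 13.8 CPM in M2-like and 0.672 to 1.47 CPM in M1-like macrophages. The part of these cells in the results was not tested. The targeted transcript was lower in each single pool than in the negative siRNA pool, at 25.2% of its mean for E2f1, 38.0% for Myc, 21.9% for Pparg and 27.3% for Stat6. In the combined pool, these levels were 60.4%, 39.6%, 28.3% and 53.9%, and all 8 decreases passed the test. In bulk RNA, more transcript per cell and more cells with the transcript cannot be told apart.

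All members but Iigp1 lie on chromosome 11 of GRCm38, in the coordinates of GENCODE M21. Tgtp1 (ENSMUSG00000078922, 48985327 to 48994172), Tgtp2 (ENSMUSG00000078921, 49057194 to 49064206) and Irgm1 (ENSMUSG00000046879, 48861968 to 48871683) form a cluster on the minus strand. Igtp (ENSMUSG00000078853, 58199556 to 58207591) and Irgm2 (ENSMUSG00000069874, 58199618 to 58222782) overlap on the plus strand and share 162 exonic bases. Iigp1 (ENSMUSG00000054072) is on the plus strand of chromosome 18, from 60376027 to 60392634. The coding sequence lies in 1 exon in Iigp1, Tgtp1 and Tgtp2 and in 2 exons in Irgm1, Irgm2 and Igtp.

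The coding sequences of Tgtp1 and Tgtp2 have 1245 bases each and differ in 4 of them, an identity of 99.7%, while the other pairs of members were between 62.3% and 74.6% identical over aligned bases. How the counting treated reads that fit several genes was not given in the sources used here. Of all windows of 50 bases in the annotated transcripts, the length of the reads of the polarization experiment, 18.8% in Tgtp1 and 13.4% in Tgtp2 occurred in no other gene. With 150 bases, the read length of the reprogramming experiment, these shares were 35.1% and 31.6%. Irgm1 and Iigp1 had 98.3% or more of their windows to themselves at both lengths, and Igtp had 88.2% and Irgm2 92.2% at 50 bases. Tgtp1 also shares 223 exonic bases with Gm12185, and both Tgtp genes overlap the span of Olfr56. The values of Tgtp1 and Tgtp2 are therefore uncertain as to how reads were split between them, and each fold change of either gene below was also computed on their summed counts.

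**Figure D1:**
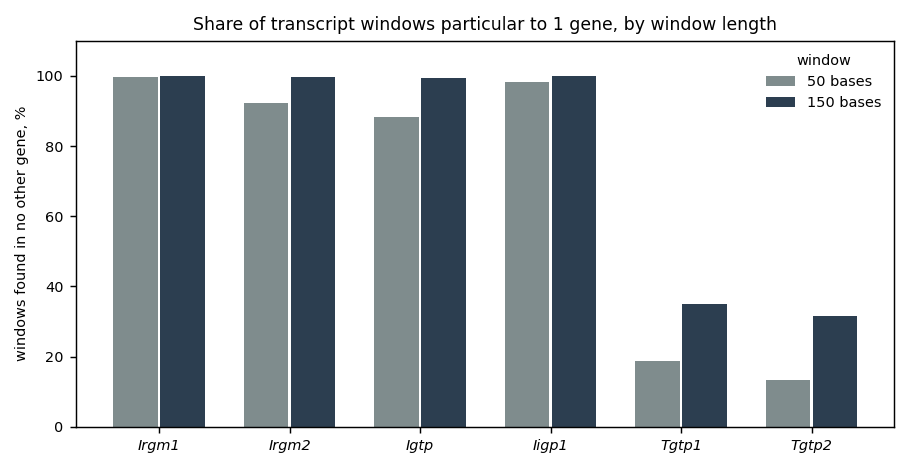
Share of all windows of 50 bases (grey) and 150 bases (dark) in the annotated transcripts of each gene that occur in no other annotated gene, in percent. Irgm1 and Iigp1 are at 98.3% or more, Tgtp1 and Tgtp2 at 13.4% to 35.1%.

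Promoter sequences are shown because all 6 members moved together in M1-like macrophages, and interferon signals reach genes through short promoter elements. Searched for were the IFNγ-activated site (GAS, as TTC, any 3 bases, GAA) and the interferon-stimulated response element, which IRF factors bind (ISRE, its core as GAAA, any 2 bases, GAAA). Both strands of the 300 bases around the start of each gene (250 before and 50 after) were searched in the RefSeq sequences of GRCm38.p6, which hold 5 of the 6 members. The ISRE core occurred in 5 of 5 member promoters and in 3.44% of all 32851 promoters. GAS occurred in 4 of 5 members and in 8.30% of all promoters, and both together in 0.454% of all promoters. The elements of Irgm2, Igtp, Tgtp1 and Tgtp2 are closely alike from their first base to the end of the ISRE. Those of Irgm2 and Igtp are near-identical, as are those of Tgtp1 and Tgtp2. The members are therefore not independent cases beside these shares. In the following elements of 30 bases the matches are in capitals, GAS first and ISRE second, and Irgm1 has no GAS but 2 ISRE matches that overlap by 4 bases.
Irgm1 (chr11:48871426-48871455, minus strand): ttcaaGAAATAGAAACCGAAActgattctc
Irgm2 (chr11:58214897-58214926, plus strand): gccatTTCCAGGAActGAAACTGAAAgctg
Igtp (chr11:58199506-58199535, plus strand): gccatTTCTAGGAActGAAACTGAAAgctg
Tgtp1 (chr11:48992310-48992339, minus strand): gccatTTCCAGGAAtcGAAACTGAAAccta
Tgtp2 (chr11:49064269-49064298, minus strand): gccatTTCCAGGAAtcGAAACCGAAAccta

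GAS and ISRE were separated by 2 bases in Irgm2, Igtp, Tgtp1 and Tgtp2, and in these 4 genes the GAS lay before the ISRE in the direction of transcription. Each match of the members lay before the start of the gene, between positions -88 and -15 relative to it. The wider spacing TTC, any 4 bases, GAA, which STAT6 prefers, was found in none of the 5 member promoters and in 6.95% of all promoters. For Irgm1, Irgm2 and Tgtp1, the RefSeq start lies inside the wider gene span of GENCODE. For context, the 150 bases before the start are given for Irgm2 and Tgtp2, which have no annotated exon there, with the same matches in capitals.
Irgm2 (chr11:58214827-58214976, plus strand): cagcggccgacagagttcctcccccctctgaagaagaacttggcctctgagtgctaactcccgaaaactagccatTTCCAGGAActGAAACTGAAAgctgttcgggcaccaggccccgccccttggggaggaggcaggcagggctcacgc
Tgtp2 (chr11:49064213-49064362, minus strand): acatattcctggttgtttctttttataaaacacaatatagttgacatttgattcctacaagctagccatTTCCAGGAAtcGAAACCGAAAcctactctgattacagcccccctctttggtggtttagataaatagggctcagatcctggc

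In the polarization experiment, all 6 members were higher in M1-like than in M0 macrophages, where 35.4% of all 16110 genes tested were higher. The regulators started from a measurable level in M0. Irgm1 measured 39.0, 39.1 and 38.7 CPM in the M0 macrophages of mouse 1, 2 and 3 and 1002, 1037 and 1061 CPM in their M1-like macrophages, a 26.5-fold increase (log2 fold change 4.73 ± 0.091 (SE), adjusted p = 8.25e-13 by edgeR's quasi-likelihood test). Irgm2 went from 18.8, 18.4 and 18.8 CPM to 503, 497 and 564 CPM, 27.9-fold higher (log2 fold change 4.803 ± 0.080). Igtp had 11.4, 10.6 and 10.9 CPM in M0 and 795, 747 and 846 CPM in M1-like macrophages, 72.4-fold higher (log2 fold change 6.18 ± 0.10). No M1-like sample came near an M0 sample for any of them. Macrophage markers summed to 16107 to 17376 CPM in M0 and 10281 to 11296 CPM in M1-like macrophages, eosinophil markers to 15.5 to 16.8 CPM and 0.208 to 0.792 CPM, and mesothelial and fibroblast markers to 7.46 to 12.2 CPM and 2.43 to 3.599 CPM. Of the 3 eosinophil markers, Prg2 had no read in M0, and Epx and Prg2 had none in M1-like macrophages. The part of these shifts in the result was not tested.

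The effectors were close to absent in M0 macrophages and well measured in M1-like macrophages. Iigp1 was at 0.1801, 0.186 and 0.404 CPM in M0, from 9, 10 and 22 reads, and at 2345, 2115 and 1883 CPM in M1-like macrophages. Its log2 fold change was 12.98 ± 0.23 (SE). Tgtp1 rose from 0.560, 0.466 and 0.680 CPM to 998, 1073 and 1148 CPM and Tgtp2 from 0.440, 0.765 and 0.643 CPM to 1187, 1263 and 1361 CPM, with log2 fold changes of 10.87 ± 0.13 and 10.996 ± 0.15. Their summed counts gave a log2 fold change of 10.94. The approximate 95% intervals of the log2 fold changes ran from 4.55 to 4.91 for Irgm1 up to 5.98 to 6.38 for Igtp. They did not reach those of the 3 effectors, the lowest of which was 10.62 to 11.13 for Tgtp1. Per kilobase of exons, the level in M0 macrophages ran from 6.71 CPM for Irgm1 over 5.44 CPM for Igtp and 5.06 CPM for Irgm2 to 0.210 CPM for Tgtp2, 0.177 CPM for Tgtp1 and 0.0441 CPM for Iigp1. In M1-like macrophages the order per kilobase was Tgtp2 with 432 CPM, Igtp with 394 CPM, Iigp1 with 363 CPM, Tgtp1 with 335 CPM, Irgm1 with 178 CPM and Irgm2 with 141 CPM.

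**Figure D2:**
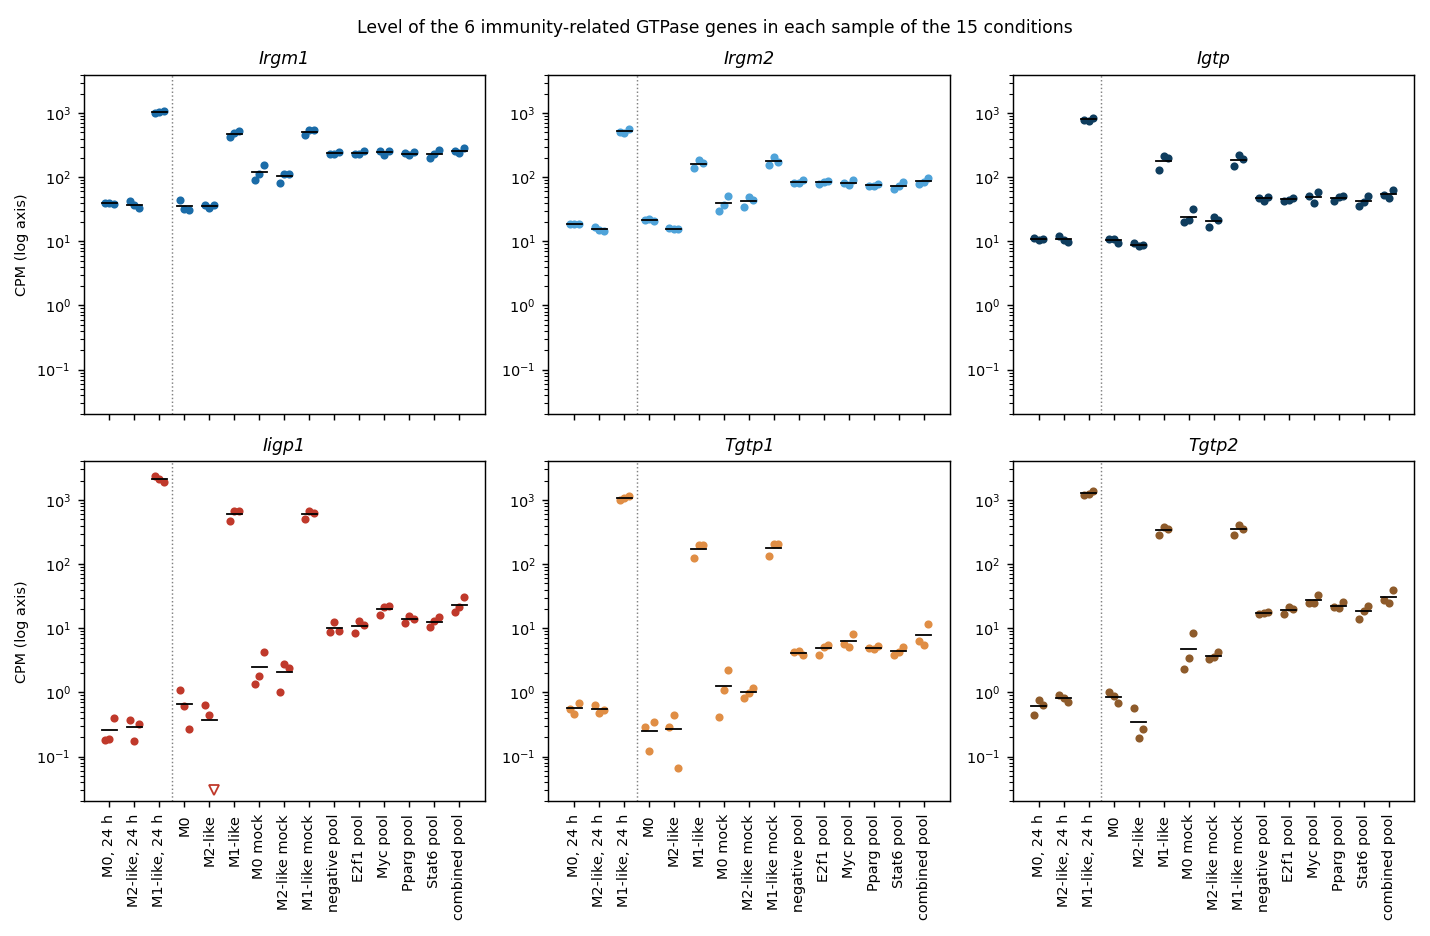
CPM of each gene (log axis) in every sample of the 15 conditions; each point is 1 sample (in the polarization experiment, left of the dotted line, 1 mouse), the bar is the mean, and the open triangle marks the sample without a read. The effectors Iigp1, Tgtp1 and Tgtp2 lie near or under 1 CPM in untransfected M0 and M2-like macrophages and between 126 and 2345 CPM in M1-like macrophages, with the siRNA pools in between.

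M2-like macrophages differed from M0 in 1 member. Irgm2 was lower with 16.5, 15.002 and 14.5 CPM in mice 1, 2 and 3, under the lowest M0 value, and the log2 fold change was -0.29 ± 0.072 (adjusted p = 0.0120 by edgeR's quasi-likelihood test, 14.4% of all genes tested lower). For Irgm1, with 37.5 ± 4.60 CPM in M2-like and 39.0 ± 0.201 CPM in M0 macrophages (mean ± SD, n = 3), the 95% interval of the log2 fold change was -0.21 to 0.10, and for Igtp it was -0.20 to 0.15. The 3 effectors stayed under 1 CPM in every M2-like sample. Against M2-like macrophages, the 6 members were higher in M1-like macrophages by log2 fold changes between 4.78 (Irgm1) and 12.84 (Iigp1), where 34.6% of all genes tested were higher.

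In the untransfected macrophages of the reprogramming experiment, M1-like again exceeded M2-like macrophages in all 6 members (31.3% of the 14172 genes tested were higher). Irgm1 measured 36.3, 33.5 and 37.4 CPM in M2-like and 424, 488 and 531 CPM in M1-like replicates 1, 2 and 3, a log2 fold change of 3.75 ± 0.16. The log2 fold changes were 3.37 ± 0.15 for Irgm2, 4.35 ± 0.21 for Igtp, 10.69 ± 0.37 for Iigp1, 9.30 ± 0.37 for Tgtp1 and 9.94 ± 0.35 for Tgtp2. Iigp1 had 9, 7 and 0 reads in the M2-like and 7724, 10097 and 10663 reads in the M1-like replicates, so that its fold change rests on very few reads on the M2-like side. Macrophage markers summed to 15934 to 18320 CPM in M2-like and 6642 to 7786 CPM in M1-like replicates. Eosinophil markers had 15.2 to 17.8 CPM and 0.610 to 1.70 CPM, with no Prg2 read in either group. Mesothelial and fibroblast markers had 48.6 to 180.9 CPM and 12.2 to 32.6 CPM. The part of these shifts in the result was not tested. Against untransfected M0 macrophages the increases in M1-like macrophages were likewise called for all 6 (29.0% of all genes tested higher), with log2 fold changes from 2.90 for Irgm2 to 9.84 for Iigp1. M1-like mock against M0 mock macrophages had 6 of 6 higher too (30.3% of all genes tested), from 2.11 for Irgm1 to 7.92 for Iigp1. Between M2-like and M0 macrophages, 1 member was called lower (9.19% of all genes tested). This was Irgm2, with 16.0, 15.4 and 15.4 CPM against 21.4, 22.5 and 21.01 CPM and a log2 fold change of -0.47 ± 0.16 (adjusted p = 0.0357). Leaving out any 1 of the 6 samples ended the call (adjusted p between 0.0638 and 0.0908), though the M0 and M2-like samples did not overlap.

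Members of the family were also higher in mock-treated than in untransfected cells, but not in M1-like macrophages. In M0 macrophages, mock treatment went with higher levels of all 6 members (11.7% of all genes tested were higher). Irgm1 rose from 43.8, 31.5 and 30.4 CPM to 90.9, 111 and 156 CPM, a 3.39-fold increase (log2 fold change 1.76 ± 0.15, adjusted p = 3.82e-10). The other log2 fold changes were 0.87 ± 0.15 for Irgm2, 1.23 ± 0.21 for Igtp, 1.91 ± 0.56 for Iigp1, 2.29 ± 0.74 for Tgtp1 and 2.44 ± 0.44 for Tgtp2. M0 mock replicate 3 was the highest of the 3 mock samples for each gene, for instance with 8.43 CPM of Tgtp2 against 2.31 and 3.38 CPM in replicates 1 and 2. Without it the calls of Iigp1 (log2 fold change 1.29, adjusted p = 0.159) and Tgtp1 (1.64, adjusted p = 0.190) were lost. Leaving out M0 replicate 2 or 3 also ended the call of Iigp1, and leaving out M0 replicate 1 or 2 that of Tgtp1 (adjusted p between 0.0511 and 0.106). Macrophage markers summed to 16475 to 16833 CPM in M0 and 12779 to 15563 CPM in M0 mock macrophages. Eosinophil markers had 15.7 to 23.9 CPM and 9.08 to 12.4 CPM. Of these markers, Epx and Prg2 had no read in either group. The part of these shifts was not tested.

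In M2-like macrophages, 5 of 6 members were higher in mock-treated than in untransfected cells, where 1.67% of all genes tested were higher. Irgm1 rose from 35.8 ± 2.02 CPM to 103 ± 18.3 CPM (mean ± SD, n = 3), with 82.3, 114 and 114 CPM in the mock replicates and a log2 fold change of 1.53 ± 0.15. Irgm2 and Igtp had log2 fold changes of 1.46 ± 0.16 and 1.23 ± 0.21, again without overlap of the samples. Among the effectors, Tgtp2 rose from 0.572, 0.193 and 0.265 CPM to 3.33, 3.58 and 4.25 CPM (log2 fold change 3.43 ± 0.57, adjusted p = 0.000151). Tgtp1 had 4, 7 and 1 reads in the untransfected and 13, 14 and 17 reads in the mock replicates. Its log2 fold change was 1.86 ± 0.77 and was not called by edgeR (adjusted p = 0.401), while DESeq2 called it (adjusted p = 0.0336). The summed counts of both Tgtp genes were called by edgeR, but Tgtp2 made up 78.2% to 80.0% of them in the mock replicates. Iigp1 was at the threshold (log2 fold change 2.498 ± 0.68, adjusted p = 0.0496), and the call was lost without M2-like replicate 1, 2 or 3 and without M2-like mock replicate 2 or 3 (adjusted p between 0.0544 and 0.313), as it was when the compared groups alone were fitted (adjusted p = 0.141).

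M1-like mock macrophages, in contrast, had levels close to those of untransfected M1-like macrophages. Irgm1 measured 424, 488 and 531 CPM without and 449, 539 and 552 CPM with the reagent, and Iigp1 472, 676 and 673 CPM and 504, 674 and 627 CPM. The ranges overlapped for all 6 members, their log2 fold changes lay between -0.012 and 0.13, and the 95% intervals reached from -0.39 to 0.42 at most. 0 of the 6 were called by edgeR or DESeq2 and 0 had an unadjusted p under 0.05. Of all 14172 genes tested, edgeR called 0 in this comparison, and 438 had an unadjusted p under 0.05.

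The difference between the mock effects was tested itself. The mock effect in M1-like macrophages minus that in M0 macrophages was below 0 and called for 5 of 6 members (5.85% of all genes tested), with log2 differences of -1.67 ± 0.21 for Irgm1, -0.74 ± 0.20 for Irgm2, -1.18 ± 0.26 for Igtp, -1.92 ± 0.60 for Iigp1 and -2.40 ± 0.48 for Tgtp2. For Tgtp1 it was -2.24 ± 0.77 and was not called (adjusted p = 0.0624). It was called for the summed counts of both Tgtp genes (-2.37), most of which were Tgtp2 reads. Without M0 mock replicate 3, the calls of Irgm2 (adjusted p = 0.0852) and Iigp1 (adjusted p = 0.234) were lost, and that of Iigp1 was also lost without M0 replicate 2 or 3, M1-like replicate 2 or 3 or M1-like mock replicate 1 (adjusted p between 0.0548 and 0.151).

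The difference between M1-like and M2-like macrophages was called smaller among mock-treated macrophages for 4 of 6 members. All 6 members were higher in M1-like mock than in M2-like mock macrophages (30.9% of all genes tested were higher), with log2 fold changes of 2.31 ± 0.15 for Irgm1, 2.04 ± 0.14 for Irgm2, 3.17 ± 0.19 for Igtp, 8.18 ± 0.30 for Iigp1, 7.50 ± 0.31 for Tgtp1 and 6.55 ± 0.26 for Tgtp2. The contrast among mock-treated minus that among untransfected macrophages was -1.44 ± 0.21 for Irgm1, -1.33 ± 0.20 for Irgm2, -1.18 ± 0.27 for Igtp and -3.39 ± 0.61 for Tgtp2, which were called (1.09% of all genes tested). The differences for Iigp1 (-2.51 ± 0.71, adjusted p = 0.101) and Tgtp1 (-1.80 ± 0.80, adjusted p = 0.590) were not. All 6 differences were below 0 with an unadjusted p under 0.05 in edgeR's test. Of all 14172 genes tested, 1063 had such a p in either direction. The call of Igtp was lost without M1-like replicate 2, M1-like mock replicate 1, M2-like replicate 2 or 3 or M2-like mock replicate 2 (adjusted p between 0.0545 and 0.0861). That of Iigp1 was gained without M2-like mock replicate 1 (adjusted p = 0.0306). Between M2-like mock and M0 mock macrophages, 0 of 6 members were called by edgeR or DESeq2 (3.83% of all genes tested called in either direction), 0 had an unadjusted p under 0.05, and the samples overlapped for each gene.

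**Figure D3:**
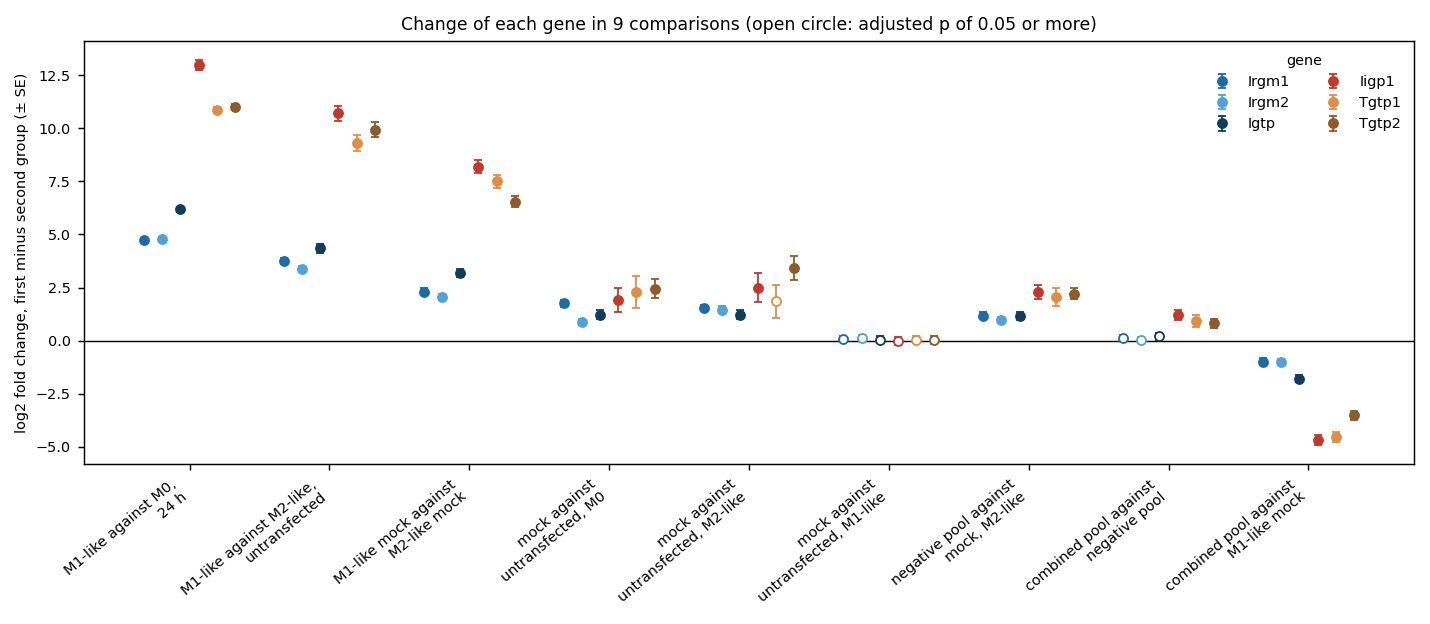
log2 fold change (first minus second group, ± SE) of each gene in 9 comparisons; filled circles passed an adjusted p of 0.05 in edgeR's quasi-likelihood test, open circles did not. The effectors have the larger changes between M1-like and M0 or M2-like macrophages, all 6 genes are near 0 between M1-like mock and M1-like macrophages, and the combined pool differs from the negative pool in the effectors and stays under M1-like mock macrophages in all 6.

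A negative siRNA pool went with a further increase of all 6 members over M2-like mock macrophages, where 6.67% of all genes tested were higher. Irgm1 rose from 82.3, 114 and 114 CPM in the mock replicates to 229.8, 231 and 244 CPM (log2 fold change 1.18 ± 0.15, adjusted p = 1.02e-06 by edgeR's quasi-likelihood test). Irgm2 (34.9, 50.1 and 43.8 CPM to 81.8, 82.4 and 90.3 CPM) and Igtp (17.0, 23.8 and 21.4 CPM to 47.8, 43.4 and 49.2 CPM) had log2 fold changes of 0.98 ± 0.14 and 1.18 ± 0.19. For all 3 regulators, each sample with the negative pool was above each mock sample.

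The effectors had log2 fold changes of 2 or more. Iigp1 rose from 1.02, 2.80 and 2.44 CPM to 8.85, 12.5 and 9.21 CPM (log2 fold change 2.29 ± 0.35). Tgtp1 went from 0.832, 0.982 and 1.19 CPM to 4.27, 4.402 and 3.77 CPM and Tgtp2 from 3.33, 3.58 and 4.25 CPM to 16.4, 17.2 and 18.2 CPM, with log2 fold changes of 2.05 ± 0.42 and 2.22 ± 0.28. These samples did not overlap either, and no left-out sample ended the call of any member. The summed level of macrophage markers was 14738 to 15998 CPM in M2-like mock and 12428.5 to 13475 CPM in the negative pool. That of 5 mesothelial and fibroblast markers was 74.1 to 129.8 CPM and 132.1 to 194.4 CPM. For 3 eosinophil markers it was 18.7 to 19.8 CPM and 33.4 to 38.7 CPM (2 of the 3 without a read in both groups). The part of these shifts in the result was not tested.

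Against the negative pool, knockdown of E2f1, Pparg or Stat6 left 0 of 6 members called by edgeR's quasi-likelihood test. In each of these 3 comparisons, 0 of 6 had an unadjusted p under 0.05. The backgrounds were 0.910% of all genes tested called in either direction for E2f1, 5.74% for Pparg and 1.51% for Stat6. DESeq2 called 0 of 6 in each of them too. In the E2f1 pool the regulators Irgm1 (230.1, 231 and 259 CPM) and Igtp (43.0, 44.8 and 47.99 CPM) overlapped with the negative pool. The approximate 95% intervals of the log2 fold changes of Iigp1 were -0.40 to 0.62 for E2f1, -0.039 to 0.96 for Pparg and -0.176 to 0.83 for Stat6. They leave room for changes of at least these sizes, since the intervals are somewhat narrower than the test implies. With Pparg, Iigp1 had 12.2, 15.7 and 13.9 CPM against 8.85, 12.5 and 9.21 CPM (log2 fold change 0.46 ± 0.25, adjusted p = 0.336). Tgtp2 had 21.1, 20.8 and 25.9 CPM against 16.4, 17.2 and 18.2 CPM, where the samples did not overlap but the test was not passed (0.38 ± 0.22, adjusted p = 0.346). Tgtp1 samples were likewise all above those of the negative pool (0.27 ± 0.31, adjusted p = 0.704). Irgm2 went the other way without overlap, with 72.9, 73.0 and 78.4 CPM against 81.8, 82.4 and 90.3 CPM (-0.18 ± 0.14, adjusted p = 0.505).

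Knockdown of Myc went with higher levels of 2 effectors, where 13.9% of all genes tested were higher. Iigp1 measured 15.9, 21.1 and 22.2 CPM, above each sample of the negative pool (8.85, 12.5 and 9.21 CPM), and its log2 fold change was 0.95 ± 0.24 (adjusted p = 0.00332). Tgtp2 had 25.0, 24.6 and 32.6 CPM and a log2 fold change of 0.66 ± 0.21 (adjusted p = 0.0174), and this call was lost with DESeq2 (adjusted p = 0.0612), without negative pool replicate 1 (adjusted p = 0.0603) and without Myc pool replicate 3 (adjusted p = 0.105). Tgtp1 (5.72, 5.14 and 8.01 CPM, log2 fold change 0.59 ± 0.29) did not pass (adjusted p = 0.126), whereas the summed counts of the pair did (0.65, adjusted p = 0.0275). The regulators had log2 fold changes between -0.041 and 0.090, and their samples overlapped with those of the negative pool. Whether the Myc pool differed from the other single pools was not tested.

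The combined pool gave the highest mean of all siRNA conditions for each member, and 3 of 6 were higher than in the negative pool, where 12.5% of all genes tested were higher. These were the effectors. Iigp1 rose from 8.85, 12.5 and 9.21 CPM to 17.7, 21.7 and 30.6 CPM in replicates 1, 2 and 3, a 2.30-fold increase (log2 fold change 1.20 ± 0.24, adjusted p = 0.000355 by edgeR's quasi-likelihood test). Tgtp1 went from 4.27, 4.402 and 3.77 CPM to 6.23, 5.49 and 11.8 CPM (log2 fold change 0.91 ± 0.28, adjusted p = 0.0159) and Tgtp2 from 16.4, 17.2 and 18.2 CPM to 27.6, 24.6 and 39.9 CPM (0.83 ± 0.21, adjusted p = 0.00363). All samples of the combined pool were above all samples of the negative pool for the 3 effectors. Mesothelial and fibroblast markers (118.2 to 170.8 CPM against 132.1 to 194.4 CPM) and eosinophil markers (22.9 to 35.0 CPM against 33.4 to 38.7 CPM) overlapped between these pools. Of the eosinophil markers, Epx and Prg2 had no read in the negative pool.

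Replicate 3 of the combined pool was the highest of its 3 samples for each of the 6 members, and part of these calls rested on it. Without it, Iigp1 was still called (log2 fold change 0.96, adjusted p = 0.00724), whereas Tgtp1 (0.50, adjusted p = 0.237) and Tgtp2 (0.59, adjusted p = 0.0539) were not. Tgtp1 also lost its call without negative pool replicate 3 (adjusted p = 0.0646). For the regulators the log2 fold changes were 0.15 ± 0.14 (Irgm1), 0.040 ± 0.14 (Irgm2) and 0.21 ± 0.17 (Igtp), with overlapping samples and 95% intervals with upper ends of 0.43, 0.31 and 0.55.

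The combined pool was also set against each single pool. Against the Myc pool 0 of 6 members were called by edgeR or DESeq2 (0 with an unadjusted p under 0.05, 0.0494% of all genes tested called in either direction), and the 95% interval of the log2 fold change was -0.19 to 0.69 for Iigp1. Against the E2f1 pool Iigp1 (1.09 ± 0.24) and Tgtp2 (0.68 ± 0.21) were higher (10.3% of all genes tested), against the Pparg pool Iigp1 (0.74 ± 0.23, 7.68% of all genes tested), and against the Stat6 pool Iigp1 (0.87 ± 0.24), Tgtp1 (0.83 ± 0.28) and Tgtp2 (0.72 ± 0.21, 10.4% of all genes tested). Without combined pool replicate 3, the call of Iigp1 against the E2f1 pool remained and the other 5 were lost. The call of Tgtp2 against E2f1 was also lost without E2f1 pool replicate 1 (adjusted p = 0.0949) and that of Iigp1 against Pparg without Pparg pool replicate 1 or 3 (adjusted p = 0.100 and 0.0658). Against Stat6, leaving out Stat6 pool replicate 1 ended the calls of Tgtp1 (adjusted p = 0.112) and Tgtp2 (0.0893), and leaving out replicate 2 that of Tgtp1 (0.0867). Without combined pool replicate 2, Tgtp1 passed against the E2f1 and Pparg pools (adjusted p = 0.0289 and 0.0442).

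Measured against M2-like mock macrophages instead, each siRNA condition had all 6 members higher. The combined pool gave log2 fold changes from 1.03 ± 0.14 (Irgm2) to 3.495 ± 0.32 (Iigp1), where 19.0% of all genes tested were higher. The single pools gave 6 of 6 as well, where 6.31% (E2f1), 19.8% (Myc), 9.59% (Pparg) and 6.13% (Stat6) of all genes tested were higher. These comparisons share the mock samples with that of the negative pool, which by itself had log2 fold changes of 1.18 for Irgm1 and 2.29 for Iigp1, against 1.33 and 3.495 in the combined pool.

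**Figure D4:**
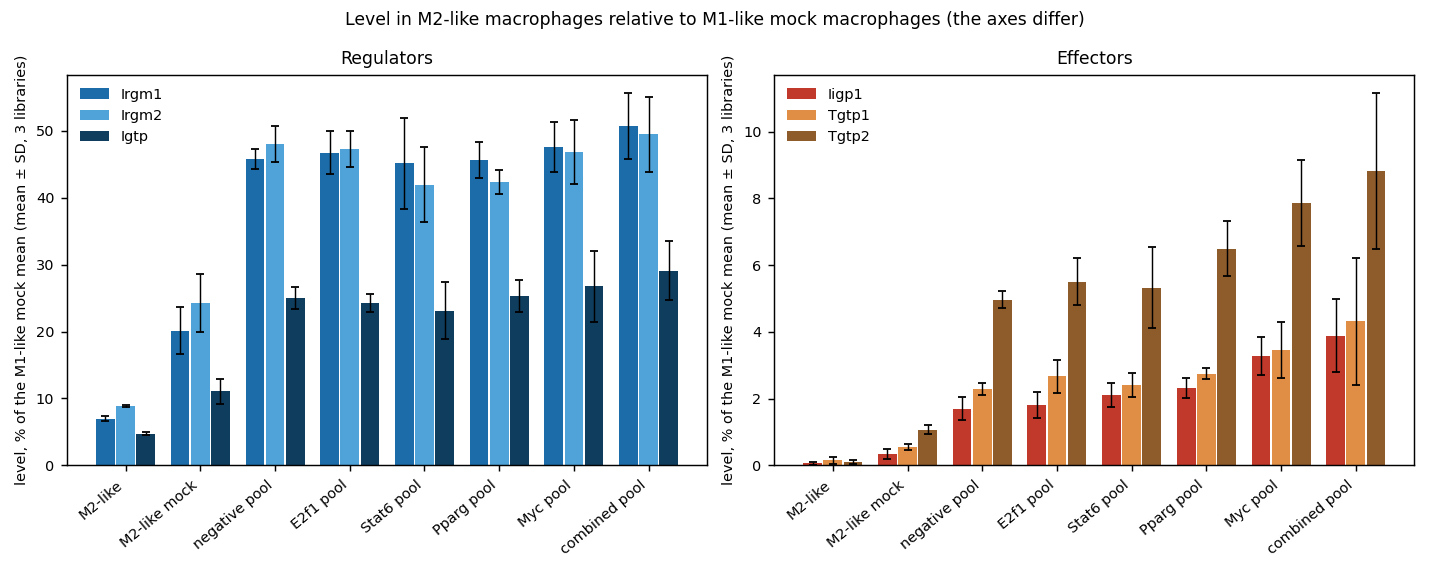
Level of each gene in M2-like conditions in percent of its mean in M1-like mock macrophages; bars are means and error bars SD of 3 replicates, regulators on the left and effectors on the right, with different vertical axes. Irgm1 and Irgm2 reach 50.7% and 49.5% in the combined pool, Iigp1 and Tgtp1 3.88% and 4.31%.

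All 6 members stayed lower in the combined pool than in M1-like mock macrophages, where 25.6% of all genes tested were lower. In percent of the mean of M1-like mock macrophages, Irgm1 reached 50.7% ± 4.91 (mean ± SD, n = 3), Irgm2 49.5% ± 5.61 and Igtp 29.1% ± 4.39. The effectors reached 3.88% ± 1.10 for Iigp1, 4.31% ± 1.90 for Tgtp1 and 8.82% ± 2.33 for Tgtp2. The log2 fold changes were -0.98 ± 0.14 for Irgm1, -1.02 ± 0.13 for Irgm2, -1.78 ± 0.17 for Igtp, -4.69 ± 0.23 for Iigp1, -4.54 ± 0.23 for Tgtp1 and -3.51 ± 0.20 for Tgtp2, and no sample of the combined pool reached an M1-like mock sample. Irgm1 had 6.97% ± 0.393 in untransfected M2-like macrophages, 20.1% ± 3.57 with the reagent and 45.8% ± 1.48 with the negative pool, and Iigp1 0.0607% ± 0.0549, 0.347% ± 0.156 and 1.70% ± 0.338. Macrophage markers summed to 6211 to 7203 CPM in M1-like mock macrophages and to 11814.5 to 12796 CPM in the combined pool. For mesothelial and fibroblast markers the sums were 8.26 to 15.7 CPM and 118.2 to 170.8 CPM. Eosinophil markers had 0.737 to 1.28 CPM and 22.9 to 35.0 CPM, and B cell markers 0.979 to 2.36 CPM and 12.97 to 24.7 CPM. The part of these shifts in the result was not tested.

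The order of the 12 reprogramming conditions was alike for the 6 members. M1-like mock and M1-like macrophages were highest, with M1-like mock first except for Iigp1, overlapped for each gene, and were followed, after a gap, by the combined pool. Next came the negative pool and the single pools in an order that differed between genes, with each neighbour overlapping the next among Irgm1, Irgm2, Igtp, Tgtp1 and Tgtp2. For Iigp1 the order was combined (23.3 ± 6.59 CPM), Myc (19.7 ± 3.38 CPM), Pparg (13.9 ± 1.76 CPM), Stat6 (12.8 ± 2.15 CPM), E2f1 (10.9 ± 2.35 CPM) and negative pool (10.2 ± 2.04 CPM), and of these neighbours only Myc and Pparg did not overlap. Mock-treated M0 and M2-like macrophages followed after another gap and overlapped each other, and the untransfected ones were last, where M2-like mock and M0 macrophages overlapped for Iigp1. Across the 12 condition means of log2 CPM, Pearson's r between 2 members was between 0.909 (Irgm1 and Tgtp1) and 0.997 (Igtp and Tgtp2), which is a description of conditions that share the M1-like contrast.

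The split of reads between the near-identical Tgtp1 and Tgtp2 differed between experiments and conditions. Tgtp2 took 54.3, 54.1 and 54.2 % of the reads of both genes in the M1-like macrophages of the 3 mice, with at least 80860 reads per mouse, and 69.4, 65.4 and 63.8 % in the M1-like replicates of the reprogramming experiment, which had longer reads. In M1-like mock macrophages it was 68.2, 66.6 and 62.9 %. The share was higher at the lower levels of the siRNA conditions, with 79.4, 79.6 and 82.8 % in the negative pool and 81.6, 81.7 and 77.2 % in the combined pool, and no sample of the 6 siRNA conditions overlapped with the M1-like or M1-like mock samples. Untransfected M2-like macrophages had 5 to 12 reads on both genes, which gives no usable share. The difference between conditions was not tested, and a changed ratio of the transcripts and a changed assignment of shared reads cannot be told apart.

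**Figure D5:**
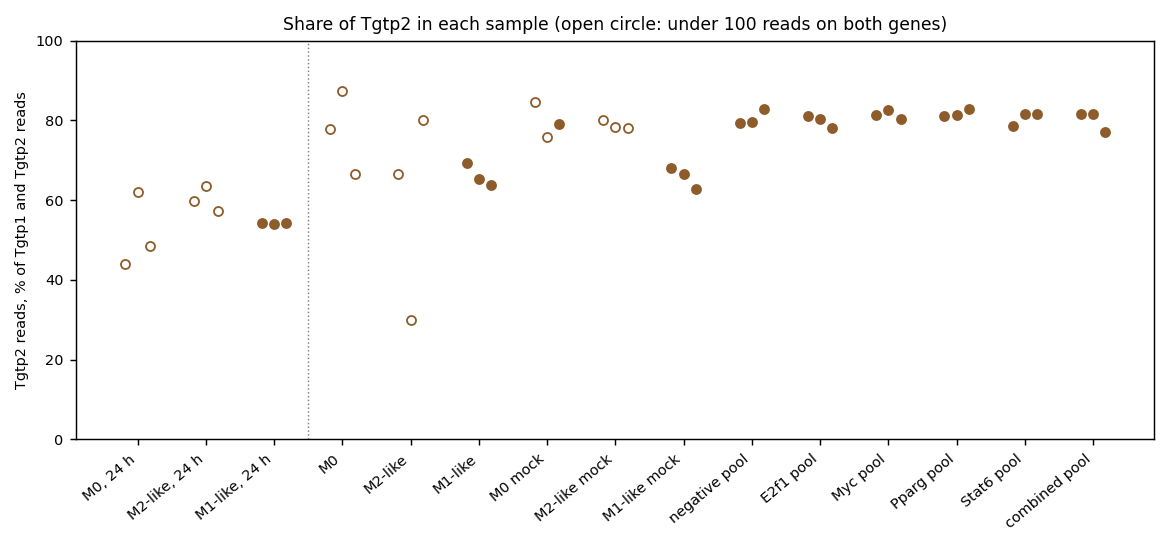
Tgtp2 reads in percent of all reads counted on Tgtp1 and Tgtp2, 1 point per sample (polarization experiment left of the dotted line); open circles have under 100 reads on both genes together. The share is near 54% in M1-like macrophages at 24 h, 62.9% to 69.4% in the M1-like and M1-like mock replicates, and 77.2% to 82.9% in the siRNA conditions.

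Most other genes of the family were higher in M1-like macrophages too. Of 11 further immunity-related GTPase genes that were counted, M1-like macrophages at 24 h had 10 of 10 tested above M0 (35.4% of all genes tested), with a median log2 fold change of 5.70 beside -0.037 over all genes tested. Gm4951, with which Iigp1 shares 1.47% of its 50-base windows, went from 0.209 ± 0.0688 CPM to 277 ± 21.9 CPM (log2 fold change 10.36 ± 0.16). Gm12250 rose from 4.76 ± 0.305 CPM to 380.0 ± 5.22 CPM (6.32 ± 0.076), Gm5970 had 0 to 1 read per mouse in M0 and 47.1 ± 5.80 CPM in M1-like macrophages, and F830016B08Rik 1 to 3 reads and 43.8 ± 1.38 CPM. In the reprogramming experiment, untransfected M1-like macrophages had 9 of 11 above M0 (median log2 fold change 3.88, 29.0% of all genes tested) and 9 above and 1 below M2-like macrophages (median 3.45, 31.3% of all genes tested higher). Among mock-treated macrophages, M1-like exceeded M0 in 6 of 11 (median 2.18, 30.3%) and M2-like in 7 of 11 (median 2.32, 30.9%). Against M2-like mock macrophages, the negative pool had 6 of 11 higher (6.67% of all genes tested), among them Gm4951 (2.06 ± 0.20) and Gm12250 (1.23 ± 0.21). In the combined pool, 2 of 11 were higher than in the negative pool (12.5% of all genes tested). These were Gm4951 (5.32 ± 0.184 CPM to 9.27 ± 1.49 CPM, 0.81 ± 0.15, adjusted p = 8.99e-05) and Irgq (0.25 ± 0.082), a distant relative of the family.

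Guanylate-binding proteins, interferon-inducible GTPases that act on pathogen vacuoles together with the family, were higher in the same conditions in part. All 8 that were counted were higher in M1-like macrophages at 24 h (median log2 fold change 8.08, 35.4% of all genes tested higher), led by Gbp4 (12.47 ± 0.17), Gbp2b (11.46 ± 0.19) and Gbp2, which had 7212 ± 125 CPM there. The mock treatment of M2-like macrophages left 5 of 8 higher (1.67% of all genes tested), the negative pool against mock 7 of 8 (6.67%), and the combined against the negative pool 4 of 8 (12.5%). Gbp4 had 1.67 ± 0.472 CPM in the negative and 4.56 ± 0.793 CPM in the combined pool (1.44 ± 0.31, adjusted p = 0.000773). Gbp2b (0.99 ± 0.23), Gbp3 (0.64 ± 0.19) and Gbp7 (0.46 ± 0.15) were the other 3, while Gbp2, the list gene of the highest mean CPM, was not called (0.29 ± 0.22, adjusted p = 0.349). All 8 remained lower in the combined pool than in M1-like mock macrophages (median log2 fold change -3.96, 25.6% of all genes tested lower).

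Interferon ligands themselves were counted at very low levels. Of 16 ligand genes in the files, 1 passed the filter in each experiment. Ifng, the gene of IFNγ, had 11 to 26 reads in M1-like macrophages at 24 h and 0 in all M0 and M2-like samples of that experiment, and at most 2 reads in any library of the reprogramming experiment. Ifnb1, the gene of the type I interferon IFNβ, had 0 to 4 reads in the negative pool replicates, 12 to 30 in those of the Myc pool and 9 to 24 in those of the combined pool. Its log2 fold change against the negative pool was 3.22 ± 0.72 (adjusted p = 0.00134 by edgeR's quasi-likelihood test) for Myc and 3.15 ± 0.73 (adjusted p = 0.00214) for the combined pool, and no read was counted in M2-like or M2-like mock macrophages.

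Among 17 receptor and signalling genes of the interferon pathway, M1-like macrophages at 24 h had 16 above and 1 below M0 (35.4% of all genes tested were higher and 37.5% lower). Irf1, a transcription factor that binds ISRE, rose from 35.6 ± 3.10 CPM to 2050.2 ± 53.3 CPM (5.85 ± 0.090) and Socs1, an inhibitor of IFNγ receptor signalling, by 8.81 ± 0.20. In the mock comparison of M2-like macrophages 5 of 17 were higher (1.67% of all genes tested), among them Usp18, an inhibitor of type I interferon signalling, with 3.29 ± 0.548 CPM and 39.7 ± 9.25 CPM (3.595 ± 0.24), and Stat2 (1.72 ± 0.17) and Irf9 (1.26 ± 0.088), components of the complex through which type I interferons act. With the negative pool, 6 were higher and 1 lower than in mock (6.67% of all genes tested were higher and 5.03% lower), with Usp18 (1.73 ± 0.175) among the higher ones. The combined against the negative pool had 5 higher and 3 lower (12.5% of all genes tested were higher and 13.9% lower). Usp18 (131 ± 2.85 CPM to 241 ± 35.5 CPM, 0.88 ± 0.17), Stat2 (0.61 ± 0.15) and Irf1 (0.41 ± 0.12) were higher and Irf8 (-0.36 ± 0.079) was lower. Against M1-like mock macrophages, the combined pool had 6 of 17 higher and 9 lower (27.2% of all genes tested were higher and 25.6% lower), with Usp18 higher (2.79 ± 0.178) but Irf1 (-3.04 ± 0.13), Socs1 (-2.499 ± 0.25) and Socs3 (-3.62 ± 0.44) lower, beside the decreases of the 6 members given above.

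The 5 genes most like the members over the 12 reprogramming conditions, by the mean of Pearson's r with the 6 members among 12151 genes, were Gm4951 (mean r 0.984), Gbp3 (0.984), Nlrc5 (0.980), Psmb9 (0.979) and Il18bp (0.977). Nlrc5 is the transactivator of MHC class I genes, Psmb9 an immunoproteasome subunit, and Il18bp a secreted inhibitor of IL-18. Il18bp, as an example, had mean levels of 3.77 CPM in M2-like, 7.57 CPM in M2-like mock, 35.5 CPM in the negative pool, 56.6 CPM in the combined pool and 340.4 CPM in M1-like mock macrophages.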

How the data were processed

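RNA of 54 libraries was sequenced in single-end reads of 50 bases (polarization experiment) and paired-end reads of 150 bases (reprogramming experiment). The authors deposited raw read counts per gene, and Trimmomatic, TopHat2, featureCounts and the mouse genome mm10 are named in the submitters' processing notes. Versions, the annotation release, the strand setting and the treatment of reads that fit several genes were not given in the sources used here. Counts on genes that share or overlap exons, and on antisense partners, are uncertain to that degree.

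Technical replicates of a mouse differed by little more than sampling noise (chi-square per gene 1.07 to 1.10, against 3.63 to 52.4 between mice) and were summed, which gave 39577911 to 59443987 counts per mouse and condition and n = 3. Genes were filtered with filterByExpr of edgeR 4.0.16 (minimum count 10, minimum total 15), scaled by TMM and tested with the quasi-likelihood test in 1 model per experiment (R 4.3.3), with Benjamini-Hochberg adjustment over all genes of the experiment and a threshold of 0.05. CPM is a level and a log2 fold change a difference between groups. A prior count of 2 was used for log2 CPM, not for the log2 fold changes. Exonic lengths, coding sequences and windows came from GENCODE M21 (GRCm38) and promoters from RefSeq (GRCm38.p6). The annotation release of the deposited counts may differ.

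Alternatives were DESeq2 1.42.0, another normalization, other filters, fits of the compared groups alone, summed Tgtp1 and Tgtp2 counts, the replicate block and leaving out each replicate. In the polarization experiment the samples of a mouse deviated together (median correlation of deviations from the group means 0.211, 0.0973 to 0.243), as given by the shared mouse. The steps were tested on simulated data. Tables were made with Python 3.11.15, pandas 2.3.3, NumPy 2.4.6 and SciPy 1.17.1, alignments with Biopython 1.88 and plots with matplotlib 3.10.9.

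Named are the 6 members in every comparison, up to 4 list genes with the largest called change and the list gene of the highest mean, the 5 genes most like the members, and the 4 targets, except for a list gene that is not reported here. The members and lists were chosen with earlier results of these data known. Comparisons of the combined pool with single pools, of single pools with mock, and of the mock effect between M1-like and M0 macrophages were added after the data were seen.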

Additional observations from a re-analysis of the deposited data

Results flagged for a closer look

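Differences between groups in the same contrast passed the test for 9 values. The contrast of M1-like with M2-like macrophages was smaller among mock-treated than among untransfected macrophages. The log2 differences were -1.44 for Irgm1, -1.33 for Irgm2, -1.18 for Igtp and -3.39 for Tgtp2. The mock effect in M1-like minus that in M0 macrophages was -1.67 for Irgm1, -0.74 for Irgm2, -1.18 for Igtp, -1.92 for Iigp1 and -2.40 for Tgtp2. Both sets share the M1-like and M1-like mock samples. Outlying samples were not tested for, since each group had 3 samples.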

How the results depend on the processing

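The 3 effectors had under 10 counts in some samples of the reprogramming experiment, so that a filter of at least 10 counts in every sample tested only the regulators. This gave 3 called members, by the construction of the filter, in the M1-like comparisons, in mock against untransfected M0 and M2-like macrophages, in each siRNA pool against mock, in the combined pool against M1-like mock, and in the difference of the mock effect between M1-like and M0 macrophages. It gave 0 for the combined and Myc pools against the negative pool and for the combined against the E2f1, Pparg and Stat6 pools. No filter gave 2 lower members in untransfected M2-like against M0 macrophages, 2 higher with Pparg against the negative pool and 3 in the combined against the Pparg pool. DESeq2 called 1 member with Myc against the negative pool, 1 in the combined against the E2f1 pool and 0 against the Pparg pool. A fit of the compared groups alone called 1 with Pparg against the negative pool and 3 in the difference of the mock effect between M1-like and M0. With mock as the reference, 6 members were higher in each of the E2f1, Myc, Pparg and Stat6 pools. Beyond the filters, the cause of these changes was not tested.

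Leaving out 1 replicate gave 0 lower members for untransfected M2-like against M0, 1 to 3 higher for the combined and 1 to 2 for the Myc against the negative pool, 1 to 3, 0 to 2 and 0 to 3 for the combined against the E2f1, Pparg and Stat6 pools, and 3 to 6 for the difference of the mock effect between M1-like and M0. The other 398 counts under other settings, and 366 with a replicate left out, stayed within 1.5 times the main count. Both directions of each comparison are in these numbers, including the many directions in which the main fit called no member. No called value changed its sign, while 57 of 855 values that were not called did.

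In the reprogramming experiment the samples share only a number. The median correlation of deviations was 0.119 (-0.101 to 0.390) for same-numbered samples. For samples with other numbers it was -0.0567 (-0.277 to 0.112), and the main fit had no replicate block. The replicate block gave 3 called members in the combined against the Pparg pool. It also called Tgtp1 with Myc against the negative pool (adjusted p = 0.0350 by edgeR's quasi-likelihood test), in the combined against the E2f1 pool (0.0171) and in the difference of the mock effect between M1-like and M0 (0.0119), and Iigp1 in that of the M1-like against M2-like contrast (0.00759). In the polarization experiment, the block of mouse changed no call. Effector levels of untransfected M0 and M2-like macrophages in the reprogramming experiment rest on few reads, which limits the precision of their fold changes.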

Other observations

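Autophagy conjugation and ubiquitin genes, whose products place the effector GTPases on pathogen vacuoles or act there with them, had a median log2 fold change of 0.28 in M1-like against M0 macrophages at 24 h, beside 8.53 for the 6 members. Of 15 genes tested, M1-like macrophages at 24 h had 9 above and 4 below the level of M0 macrophages, beside 35.4% and 37.5% of all genes tested. Trim21, a ubiquitin ligase, rose from 20.8 to 110.1 CPM (log2 fold change 2.40 ± 0.082), the autophagy receptor Sqstm1 from 729 to 2509 CPM (1.78 ± 0.088), the ubiquitin ligase Traf6 by 1.41 ± 0.082 and the conjugation factor Atg16l1 by 1.13 ± 0.055. In the negative pool 3 of 15 were higher than in M2-like mock macrophages (6.67% of all genes tested), namely Trim21 (0.53 ± 0.13), Atg12 (0.35 ± 0.072) and Sqstm1 (0.35 ± 0.093). In the combined against the negative pool, 3 were higher and 2 lower, beside 12.5% and 13.9% of all genes tested. Atg16l1 (0.34 ± 0.065), the receptor Optn (0.33 ± 0.094) and Sqstm1 (0.28 ± 0.093) were higher, and Map1lc3b (-0.28 ± 0.093), a ubiquitin-like protein of autophagosome membranes, was among the lower ones. Against M1-like mock macrophages, 4 of 15 were higher and 2 lower in the combined pool (median log2 fold change 0.037), beside 27.2% and 25.6% of all genes tested, and Optn (0.97 ± 0.095) and Sqstm1 (0.46 ± 0.093) were among the higher ones.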
